A study of Mus musculus with 15 samples.

Results

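The 5 genes described here make up 2 chemokine axes, each a set of secreted or shed ligands with the receptor that reads them. They are the ligands Cxcl9 and Cxcl10 with their receptor Cxcr3, and the ligand Cxcl16 with its receptor Cxcr6. They were taken by gene symbol from the 46679 genes measured in tumors of 4 syngeneic mouse glioma lines and in naïve brain, and all 5 passed the filter on low counts that left 17481 genes for testing. RNA came from 15 C57BL/6 mice, 3 in each of 5 groups. The control group was naïve brain without tumor cells. The other groups were end-stage intracranial tumors grown from CT2A, GL261, 005 or Mut3 cells in mice that were 6 to 8 weeks old at implantation. The age of the naïve mice is recorded as 6 to 8 weeks as well. The Mut3 group also differed in cell dose, with 500000 cells implanted, against 100000 of each other line. The study reports that end stage came soonest with CT2A and that Mut3 progressed slowest. Time from implantation to harvest, and age at harvest, are thus tied to the line. All 4 lines carried GFP and firefly luciferase, which naïve brain did not, and each group stands for a single line. CT2A and GL261 were chemically induced with methylcholanthrene. The 005 line arose from H-ras and AKT activation in p53+/- mice, and Mut3 came from a tumor with Nf1 and p53 inactivated. Mice were perfused with PBS before the tissue was taken.

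CXCL9 and CXCL10 are chemokines that cells secrete after exposure to interferon-gamma, and CXCL10 also answers to type I interferon and NF-kappaB. They attract activated T cells and NK cells that carry CXCR3 and are best known for guiding such cells into inflamed tissue and tumors. CXCL16 is unusual in being made as a membrane protein, mainly by macrophages and dendritic cells, from which ADAM proteases cut a soluble chemokine. Its receptor, CXCR6, is carried by activated and tissue-resident T cells and by some NK and NKT cells.

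Depth and tissue content differed between samples. Total counts ran from 3105119 to 13130158 per sample and were lowest in naïve brain, so that 3 counts, the level taken as the floor of detection, stood for 0.228 to 0.966 CPM, the count scaled to the size of the library. This floor covers counting error only. The naïve samples had the defining markers of brain, with 10 neuron and oligodendrocyte markers summing to between 5657 and 7203 normalized CPM. The same sum was 200 to 3090 in 11 of the 12 tumors and 7323 in 005 replicate 3, the tumor that also had the highest mitochondrial share, 17.8% of counts. The members' results for 005 are therefore also given without that sample. All levels come from bulk tissue, in which fewer cells of a type and less RNA per cell cannot be told apart.

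Cxcl9 and Cxcl10 are neighbors in one chemokine cluster. In GRCm38, Cxcl9 (ENSMUSG00000029417) lies on chromosome 5 from 92321347 to 92328079 and Cxcl10 (ENSMUSG00000034855) from 92346638 to 92348889, both on the minus strand and 18558 bases apart. The upstream sequences are shown because the ligands are the interferon-induced members and share this locus. RefSeq windows were at hand for 4 of the 5 members, all but Cxcl16, and the 250 bases before each start were searched on both strands. The motifs were the interferon-gamma activated site (TTCNNNGAA), the core of the interferon-stimulated response element (GAAANNGAAA) and the kappa B consensus. Capitals mark motif matches and the longest stretch that the 2 sequences share, each printed 5′ to 3′ along the gene. The Cxcl9 sequence is chr5:92328080-92328329 and that of Cxcl10 is chr5:92348890-92349139, minus strand, RefSeq on GRCm38.p6.
Cxcl9: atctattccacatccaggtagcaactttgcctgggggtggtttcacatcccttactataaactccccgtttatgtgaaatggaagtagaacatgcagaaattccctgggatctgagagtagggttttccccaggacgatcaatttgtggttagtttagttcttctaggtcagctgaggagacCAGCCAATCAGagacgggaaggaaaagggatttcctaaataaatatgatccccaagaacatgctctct
Cxcl10: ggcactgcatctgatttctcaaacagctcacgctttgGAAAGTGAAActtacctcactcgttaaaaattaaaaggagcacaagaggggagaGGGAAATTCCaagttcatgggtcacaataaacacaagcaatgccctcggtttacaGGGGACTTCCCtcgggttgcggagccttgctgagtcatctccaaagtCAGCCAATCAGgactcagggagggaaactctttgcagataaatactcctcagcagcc

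The Cxcl10 sequence held 1 interferon-stimulated response element core, from 213 to 204 bases before the start, against 2.98% of the 32851 promoter windows searched the same way. It also held kappa B matches from 159 to 150 and from 104 to 94 bases before the start, the latter being overlapping matches on both strands. A kappa B match was present in 7.25% of all windows. The Cxcl9, Cxcr3 and Cxcr6 windows held none of the 3 motifs in these letters, including the interferon-gamma activated site that 7.02% of windows held. The longest stretch shared by Cxcl9 and Cxcl10, CAGCCAATCAG, has 11 bases and lay 68 to 58 bases before the start of Cxcl9 and 57 to 47 before that of Cxcl10. It was found in 0.755% of all windows. These matches describe letters in a window and were not tested for binding.

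**Figure D1:**
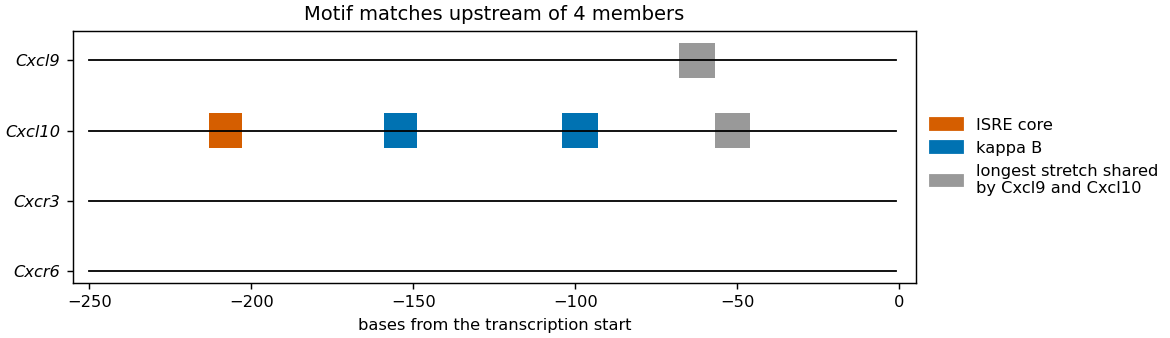
Motif matches in the 250 bases upstream of Cxcl9, Cxcl10, Cxcr3 and Cxcr6, with the distance from the transcription start in bases on the x axis. Of the 4 genes, Cxcl10 has the interferon-stimulated response element (ISRE) core and the kappa B matches, and the gray boxes mark the 11-base stretch that Cxcl9 and Cxcl10 share.

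Cxcl9 had the widest range of the 5 genes. Its level was 0.612, 1.25 and 4.06 normalized CPM in replicates 1 to 3 of naïve brain. It was 35.9, 36.2 and 48.6 CPM in CT2A and 167, 50.4 and 149 CPM in GL261. In 005 it was 174, 2706 and 101 CPM, and in Mut3 6.60, 8.68 and 42.6 CPM. Every tumor lay above every naïve brain, every 005 and GL261 tumor lay above every CT2A tumor, and the Mut3 tumors overlapped with CT2A. The 005 tumors differed most among themselves, with replicate 2 far above the other two.

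Per gene length, Cxcl10 was the highest member in naïve brain, at 5.37 to 10.7 TPM against at most 1.57 TPM for any other. In CPM, which is not scaled to length, it was at 17.3, 23.2 and 18.9 normalized CPM in naïve brain and at 115, 131 and 189 CPM in CT2A. In GL261 it was at 434, 149 and 248 CPM. In 005 it was at 56.4, 634 and 58.2 CPM, and in Mut3 at 12.3, 40.3 and 41.7 CPM. CT2A and GL261 overlapped with each other and lay above naïve brain throughout, whereas 2 of the 3 tumors of 005 lay below every CT2A tumor and Mut3 overlapped with naïve brain. An exon of Art3 overlaps 133 exonic bases of Cxcl10 on the opposite strand, and whether counting used strand is not given in the sources used here. Art3 had 28 to 900 counts per sample against 70 to 5249 for Cxcl10, and its part in the Cxcl10 values was not tested.

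The receptor Cxcr3 (ENSMUSG00000050232, chromosome X from 101731535 to 101734269, minus strand) stood near the floor of detection in naïve brain and Mut3. Naïve brain had 1, 0 and 6 counts, CT2A 17, 5 and 18, and GL261 9, 13 and 19. The 005 tumors had 27, 63 and 64 counts and the Mut3 tumors 0, 1 and 6. As normalized CPM these are 0 to 1.62 in naïve brain, 0 to 0.528 in Mut3, 0.776 to 2.33 in CT2A, 1.87 to 2.30 in GL261 and 2.78 to 7.61 in 005. The 005 tumors lay above all other samples, and the Mut3 tumors overlapped with naïve brain, in which replicate 3 lay inside the range of CT2A.

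The second axis pairs a ligand and a receptor on different chromosomes. Cxcl16 (ENSMUSG00000018920, chromosome 11 from 70453983 to 70459984, minus strand) was at 2.45, 3.24 and 4.33 normalized CPM in naïve brain and at 10.3, 15.5 and 24.3 CPM in CT2A. It was at 36.1, 14.7 and 30.4 CPM in GL261, at 21.0, 124 and 22.7 CPM in 005 and at 6.49, 8.93 and 8.97 CPM in Mut3. All tumors lay above all naïve brains, and the Mut3 tumors lay below all other tumors. Exons of Zmynd15 overlap 552 exonic bases of Cxcl16 on the opposite strand. Zmynd15 had 1 to 3 counts in naïve brain and 6 to 278 in the tumors, against 12 to 16 and 58 to 1027 for Cxcl16, and its part in the Cxcl16 values was not tested.

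Cxcr6 (ENSMUSG00000048521, chromosome 9 from 123806475 to 123811760, plus strand) had 1 count in each naïve brain, which is below the floor of 3 counts. It had 29, 39 and 36 counts in CT2A and 38, 23 and 41 in GL261. The 005 tumors had 125, 300 and 241 counts and the Mut3 tumors 3, 14 and 23. As normalized CPM, the 005 tumors were at 12.9, 36.2 and 17.2, against 3.54 to 7.88 over CT2A and GL261 and 0.336 to 2.02 in Mut3. The 3 ranges did not overlap, while CT2A and GL261 overlapped with each other.

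**Figure D2:**
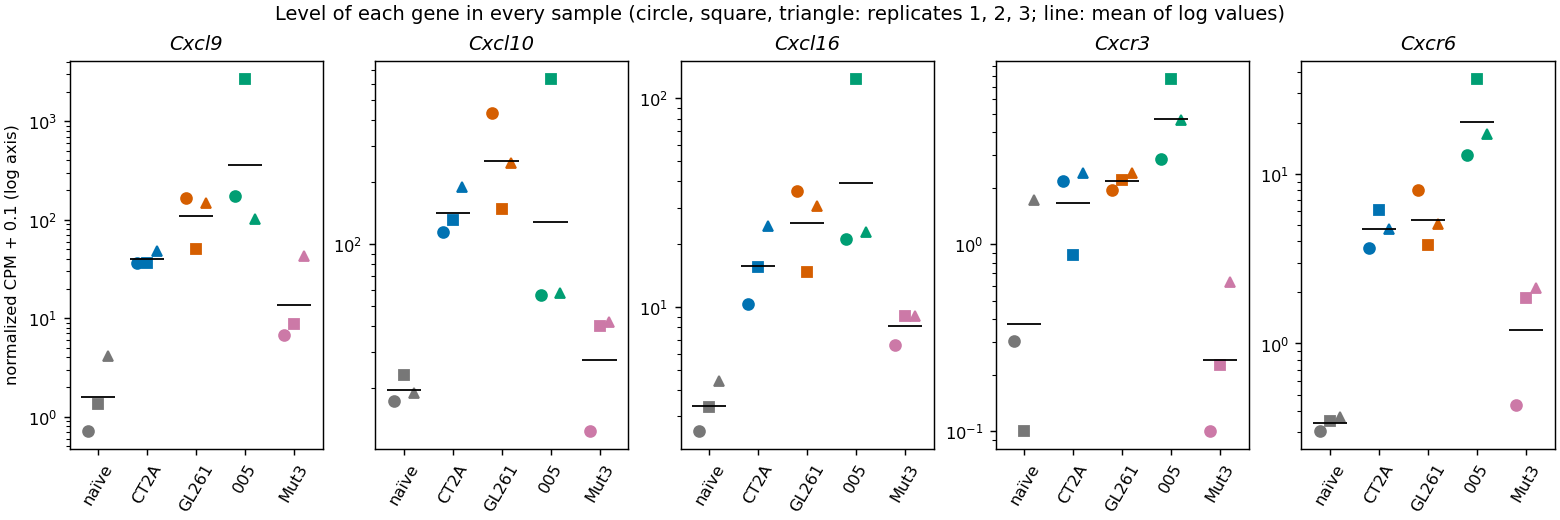
Normalized CPM plus 0.1 of the 5 genes in each of the 15 samples, on a log axis that differs between panels; symbols are replicates 1 (circle), 2 (square) and 3 (triangle), and lines are means of the log values. 005 replicate 2 is the highest sample for all 5 genes, at 2706 CPM for Cxcl9, and Mut3 has the lowest tumor values of every gene.

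Each gene was tested over all 17481 genes with edgeR's quasi-likelihood test. Genes were called between groups where the Benjamini-Hochberg (BH) adjusted p was under 0.05 and the fold change at least 1 on the log2 scale in either direction. The 5 groups differed for all 5 members, as they did for 52.1% of all genes tested at the same adjusted p. The adjusted p was 0.000523 for Cxcl9, 0.00478 for Cxcl10, 0.00167 for Cxcl16, 0.0151 for Cxcr3 and 0.000110 for Cxcr6. These calls held under every other tool and setting that could be run for a gene and with each library left out in turn.

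Tumors were first compared with naïve brain, to see which parts of the axes were raised in each line. The 4 comparisons use the same 3 naïve brains and are thus not independent of each other. Of the 5 members, 4 were higher in CT2A, against 19.0% of all genes. In GL261 4 were higher, against 14.6%, and in 005 4, against 11.6%. In Mut3 2 were higher, against 17.9%. The genes called in CT2A, GL261 and 005 were Cxcl9, Cxcl10, Cxcl16 and Cxcr6, those called in Mut3 were Cxcl9 and Cxcr6, and no member was called lower.

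Cxcl9 had the largest changes of the ligands. On the log2 scale it exceeded naïve brain by 4.39 ± 1.23 (SE; adjusted p = 0.0124) in CT2A and 5.99 ± 1.30 (adjusted p = 0.00591) in GL261. The change was 9.01 ± 1.45 (adjusted p = 0.00196) in 005, rank 12 of the 17481 genes by fold change, and 3.33 ± 1.20 (adjusted p = 0.0387) in Mut3. The call in Mut3 was lost without naïve replicate 1 (adjusted p = 0.125), without naïve replicate 2 (0.0969) or without Mut3 replicate 3, where the log2 fold change was 1.97 (0.214). Without 005 replicate 2 the change in 005 was 6.17 (adjusted p = 0.00308), and without 005 replicate 3 it was 9.49.

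Cxcl10 rose by a log2 fold change of 2.87 ± 0.81 (SE; adjusted p = 0.0129) in CT2A, 3.80 ± 0.85 (0.00689) in GL261 and 3.65 ± 0.84 (0.0112) in 005. In Mut3 its log2 fold change was 0.67 ± 0.77 (adjusted p = 0.513). The 005 call rested on replicate 2, without which the log2 fold change was 1.54 (adjusted p = 0.0900), and it was also lost without naïve replicate 1 (3.57, 0.0560). Without 005 replicate 3 it was 4.05 (adjusted p = 0.00113).

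Cxcl16 rose by 2.33 ± 0.66 (log2, SE; adjusted p = 0.0126) in CT2A, 3.02 ± 0.67 (0.00660) in GL261 and 4.07 ± 0.69 (0.00231) in 005. In Mut3 its change was 1.29 ± 0.65 (adjusted p = 0.125), which passed without 005 replicate 2 (0.0279). The CT2A call was lost without CT2A replicate 3 (1.96, adjusted p = 0.0519). The change in 005 was 2.72 (adjusted p = 0.00494) without 005 replicate 2, below that of GL261, and 4.38 without 005 replicate 3.

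Both receptors were low in naïve brain, and their ratios carry wide counting intervals. Cxcr6 was called in all 4 tumors, with adjusted p of 0.00144 for CT2A, 0.00150 for GL261, 0.00175 for 005 and 0.0253 for Mut3. With 3 naïve counts in all, its ratio over naïve brain was 19.5 (95% exact interval 6.51 to 96.3) in CT2A and 22.3 (7.41 to 110) in GL261. It was 87.4 (29.8 to 425) in 005 and 5.95 (1.90 to 30.1) in Mut3. The intervals cover counting error only. The 005 call held without 005 replicate 3 (adjusted p = 6.13e-05) and without 005 replicate 2 (0.00274). The Mut3 call was lost without naïve replicate 1 (adjusted p = 0.0812), naïve replicate 3 (0.0574), Mut3 replicate 2 (0.0612) or Mut3 replicate 3 (0.0865).

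Cxcr3 was not called in any tumor over naïve brain. Its log2 fold change was 1.55 ± 1.01 (SE; adjusted p = 0.228) for CT2A, 1.82 ± 1.01 (0.188) for GL261, 3.06 ± 1.00 (0.0592) for 005 and −1.27 ± 1.12 (0.387) for Mut3. Naïve replicate 3 held 6 of the 7 naïve counts, and without it Cxcr3 was called in CT2A (3.80, adjusted p = 0.0350), GL261 (4.07, 0.0457) and 005 (5.31, 0.0250), and the Mut3 value was 0.98. In 005 it was also called without 005 replicate 3 (adjusted p = 0.0365), Mut3 replicate 1 (0.0445) or Mut3 replicate 3 (0.0453), and DESeq2 called it with all samples. For 005, 6535 of 18300 genes were called without 005 replicate 3 and 3341 of 17481 by DESeq2, against 2217 of 17481 in the main fit.

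**Figure D3:**
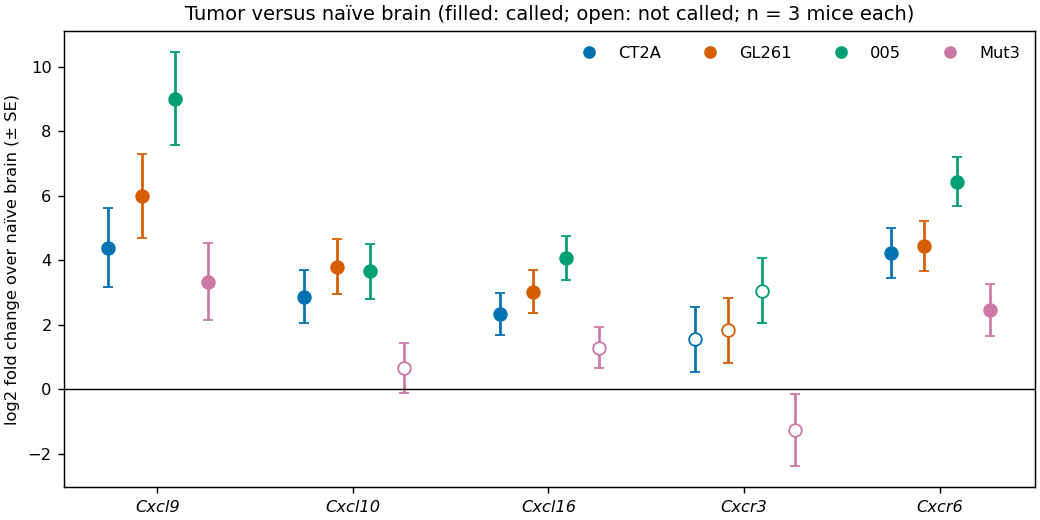
Log2 fold change of the 5 genes over naïve brain in each tumor line, with SE from edgeR (n = 3 mice per group) and filled points for called genes. Cxcl9 in 005 is the highest point at 9.01, and the Cxcr3 points are all open.

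The 4 lines were then compared in pairs, which gives 6 comparisons. Between 005 and Mut3, all 5 members were higher in 005, against 14.0% of all genes. The log2 differences were 5.68 for Cxcl9 (SE 1.21, adjusted p = 0.00649), 2.99 for Cxcl10 (SE 0.81, 0.0195) and 2.78 for Cxcl16 (SE 0.63, 0.00875). They were 4.33 for Cxcr3 (SE 1.02, adjusted p = 0.0109) and 3.98 for Cxcr6 (SE 0.60, 0.00103). Without 005 replicate 2 the Cxcl9 difference was 2.83 (adjusted p = 0.0180), that of Cxcl16 was 1.43 (0.0360) and that of Cxcl10 was 0.87 and not called (0.237). The Cxcl10 call was also lost without Mut3 replicate 1 (2.64, adjusted p = 0.0749), and all 5 were called without 005 replicate 3. Of all genes, 2952 of 18300 were called without 005 replicate 3, against 3463 of 17481 with all samples.

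Between GL261 and Mut3, 3 members were higher in GL261, against 11.1% of all genes. Cxcl10 differed by 3.14 ± 0.82 (log2, SE; adjusted p = 0.0183), Cxcr3 by 3.09 ± 1.01 (0.0477) and Cxcr6 by 1.98 ± 0.57 (0.0287). Cxcl9 had a difference of 2.66 (adjusted p = 0.0923) and Cxcl16 of 1.73 (0.0619). These calls stood close to the threshold. That of Cxcl10 was lost without Mut3 replicate 1 (adjusted p = 0.0699), and that of Cxcr6 without GL261 replicate 1 or 3 or Mut3 replicate 1 or 2 (0.0575 to 0.0749). That of Cxcr3 was lost without any of 9 libraries, namely the 3 GL261 tumors, Mut3 replicates 1 and 2, CT2A replicates 1 and 3, naïve replicate 1 and 005 replicate 1 (adjusted p at most 0.130), and its difference was 4.90 without Mut3 replicate 3. Without 005 replicate 2 or replicate 3 all 5 members were called. The number of all genes called also rose, from 3015 of 17481 to 3453 of 18308 and 4125 of 18300.

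Between CT2A and 005, 2 members were lower in CT2A, against 1.99% of all genes. Cxcl9 differed by −4.63 ± 1.15 (log2, SE; adjusted p = 0.0379) and Cxcr6 by −2.22 ± 0.55 (0.0376). The Cxcl9 call was lost without 005 replicate 2, where the difference was −1.77 (adjusted p = 0.148), and without any CT2A tumor or GL261 replicate 1 or 3 (0.0532 to 0.160). The Cxcr6 call was lost without naïve replicate 1 or 2, any CT2A tumor, GL261 replicate 2 or 3 or 005 replicate 2, with adjusted p of at most 0.147. Cxcl10 had a difference of −0.78 (adjusted p = 0.531), which was 1.34 (0.127) without 005 replicate 2. Without 005 replicate 3 the same 2 members were called (Cxcl9 −5.13, adjusted p = 0.0111, and Cxcr6 −2.34, 0.0362), while Cxcl10 differed by −1.22, Cxcl16 by −2.08 and Cxcr3 by −1.54 without being called. Then 790 of 18300 genes were called, against 719 of 17481 with all samples.

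No member was called by edgeR in the other 3 pairs. Between CT2A and GL261 edgeR called 7.77% of all genes and DESeq2 2163 of 17481. No member had an unadjusted p under 0.05 in edgeR or was called by DESeq2. Between CT2A and Mut3 edgeR called 12.8% of all genes and DESeq2 3205 of 17481. Of the members, 3 had an unadjusted p under 0.05 in edgeR and were called by DESeq2. They were Cxcl10 (2.21, adjusted p = 0.0777 in edgeR), Cxcr3 (2.82, 0.0783) and Cxcr6 (1.77, 0.0540). Between GL261 and 005 edgeR called 2.62% of all genes and DESeq2 952 of 17481. Of the members, 2 had an unadjusted p under 0.05 in edgeR and were called by DESeq2. These were Cxcl9 (−3.02, adjusted p = 0.176 in edgeR) and Cxcr6 (−2.00, 0.0717). Both were called by edgeR without 005 replicate 3 (−3.57, adjusted p = 0.0384, and −2.17, 0.0416), whereas without 005 replicate 2 the differences were −0.17 (0.944) and −1.45 (0.270). Without 005 replicate 2 Cxcl10 was called higher in GL261 (2.27, adjusted p = 0.0462). Of all genes, 458 of 17481 were called with all samples, 1073 of 18300 without 005 replicate 3 and 336 of 18308 without 005 replicate 2.

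The study names GL261 and 005 immune-active lines and CT2A and Mut3 immunologically inert ones. It drew this division from the RNA sequencing of these same samples, so the comparison is not independent evidence of its direction. All 5 members were higher in GL261 and 005, against 12.6% of all genes. The contrast is between means of lines and need not hold for each line. No member was called between CT2A and GL261 alone. Cxcl10 in 005 replicates 1 and 3, at 56.4 and 58.2 normalized CPM, lay below every CT2A tumor (115 to 189 CPM). The log2 difference was 3.64 ± 0.78 (SE; adjusted p = 0.00669) for Cxcl9, 1.96 ± 0.55 (0.0229) for Cxcl10 and 1.74 ± 0.43 (0.0131) for Cxcl16. It was 2.30 ± 0.67 (adjusted p = 0.0262) for Cxcr3 and 2.10 ± 0.40 (0.00372) for Cxcr6. Without 005 replicate 2 the Cxcl9 difference was 2.21 (adjusted p = 0.00796), that of Cxcl16 was 1.06 (0.0217) and that of Cxcl10 was 0.90 and not called (0.0650). The Cxcl10 call was also lost without CT2A replicate 2 (0.0516) or Mut3 replicate 1 (0.0518). The Cxcr3 call was lost without CT2A replicate 2 or 3, GL261 replicate 3 or Mut3 replicate 1 or 2 (0.0505 to 0.0620). Without 005 replicate 3 all 5 were called, with differences of 3.85 for Cxcl9, 2.14 for Cxcl10, 1.87 for Cxcl16, 2.27 for Cxcr3 and 2.12 for Cxcr6. Then 2444 of 18300 genes were called, against 2959 of 17481 with all samples.

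Markers of the cells that make and read these chemokines moved in the same comparison. Of 9 T cell markers tested, 8 were higher in GL261 and 005, and of 10 microglia and macrophage markers 8 were, with medians of 2.43 and 1.47 on the log2 scale against 0.10 over all genes, of which 12.6% were higher. Of the NK cell markers 3 of 6 were higher (median 2.28), of the dendritic cell markers 2 of 7 (1.37) and of the T helper 1 and tissue-resident lymphocyte genes 2 of 9 (0.94). The 10 T cell markers summed to 5.30 to 32.1 normalized CPM in naïve brain and 11.3 to 24.4 in Mut3, and to 31.4 to 62.8 in CT2A, 89.9 to 144 in GL261 and 74.8 to 458 in 005. The highest of these sums was that of 005 replicate 2. In naïve brain the highest sum, 32.1, held 26.4 CPM of Cd4, which was at most 1.51 CPM in Mut3. The microglia and macrophage sum was 263 to 313 in naïve brain, 103 to 224 in Mut3, 355 to 472 in CT2A, 662 to 939 in GL261 and 628 to 1213 in 005. Neuron and oligodendrocyte markers were also higher in GL261 and 005, 8 of 10. The part of these markers in the chemokine results was not tested.

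Ratios between members of one sample were compared over the 12 tumors. They used TPM, which is scaled to gene length, with 0.1 TPM added, and exact permutation tests with BH adjustment over 5 ratios. The test among the 4 lines used the sum of squares between lines, and that of GL261 with 005 against CT2A with Mut3 was two-sided. The ratio of Cxcl9 to Cxcl10 differed among the 4 lines (exact p = 0.00727, adjusted 0.0182, where 6.49e-05 is the smallest p possible). It was 0.358, 0.383 and 0.434 in the CT2A tumors and 0.471, 0.534 and 0.828 in the GL261 tumors, in ascending order. In the 005 tumors it was 2.39, 4.24 and 5.90, and in the Mut3 tumors 0.308, 0.753 and 1.41. By the deposited TPM all 005 tumors had more Cxcl9 than Cxcl10, all CT2A and GL261 tumors had less, and the 005 values did not overlap with any other line. The lengths behind these TPM are not given in the sources used here, so a ratio of 1 need not mean equal levels. Annotated exons hold 3016 bases for Cxcl9 and 2252 for Cxcl10. The adjusted p of the exact test was 0.0638 without 005 replicate 2 and 0.0372 without 005 replicate 3. Between GL261 with 005 and CT2A with Mut3 the log2 ratio differed by 1.55 (exact p = 0.0628, adjusted 0.105). That test divided single tumors freely, so its p takes tumors as the units and does not allow for their grouping in lines.

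The ratio of the receptors, Cxcr6 to Cxcr3, had no difference that passed the test with 0.1 TPM added (exact test over the 4 lines, adjusted p = 0.508), whereas with 1 TPM added it passed (adjusted 0.0357). Its medians were 0.987 in CT2A, 1.07 in GL261 and 2.11 in 005. A ratio near 1 need not mean equal levels here either, since the lengths behind the TPM are not given. Annotated exons hold 1931 bases for Cxcr6 and 1731 for Cxcr3, while the mean normalized CPM in CT2A was 4.75 and 1.73. In Mut3 Cxcr3 was at 0, 0.0246 and 0.0982 TPM, below the 0.1 TPM that was added, so the Mut3 ratio is set largely by that addition and is not compared. The ratio of Cxcl16 to Csf1r, the receptor that marks microglia and macrophages, likewise did not pass (adjusted p = 0.584). Its medians were 2.73, 2.85, 3.12 and 2.42 in CT2A, GL261, 005 and Mut3, with ranges that overlapped between all lines.

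The receptors were also set against Cd3d, Cd3e and Cd3g, which encode parts of the T cell receptor complex, and no direction is read from these ratios since they changed with the settings. With 0.1 TPM added, the ratio of Cxcr6 to the summed Cd3 TPM differed among the lines (exact p = 0.00571, adjusted 0.0182), with medians of 0.00612 in GL261, 0.0154 in 005, 0.0185 in CT2A and 0.0219 in Mut3. The log2 difference of GL261 and 005 from CT2A and Mut3 was −1.19 for Cxcr6 (exact p = 0.0195, adjusted 0.0487) and −1.31 for Cxcr3 (exact p = 0.0108, adjusted 0.0487). Here too tumors, not lines, were the units of the test. In Mut3 both receptors were at or below 0.190 TPM, so that the added 0.1 TPM makes up much of the ratio. With 0.01 TPM added the differences were −0.74 and −0.30, and with CPM per kilobase −0.47 and −0.42, and none of these passed. With 1 TPM added both passed (exact test, adjusted 0.0108). Cd3g made up 84.0% to 95.8% of the summed Cd3 TPM, although in CPM its mean was 70.5 in 005 against 48.6 for Cd3d. The length by which the deposited TPM of Cd3g was scaled is not given in the sources used here. With Cd3d alone, chosen after seeing the data, the differences were −0.53 and −0.64 and neither passed (exact test, adjusted 0.112 for both). With 0.1 TPM the call among lines was also lost without GL261 replicate 1 (exact test, adjusted 0.0593) or replicate 3 (0.0542). The differences were lost without CT2A replicate 1, any GL261 tumor, 005 replicate 2 or any Mut3 tumor, and that of Cxcr6 also without CT2A replicate 2 (exact test, adjusted at most 0.108).

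**Figure D4:**
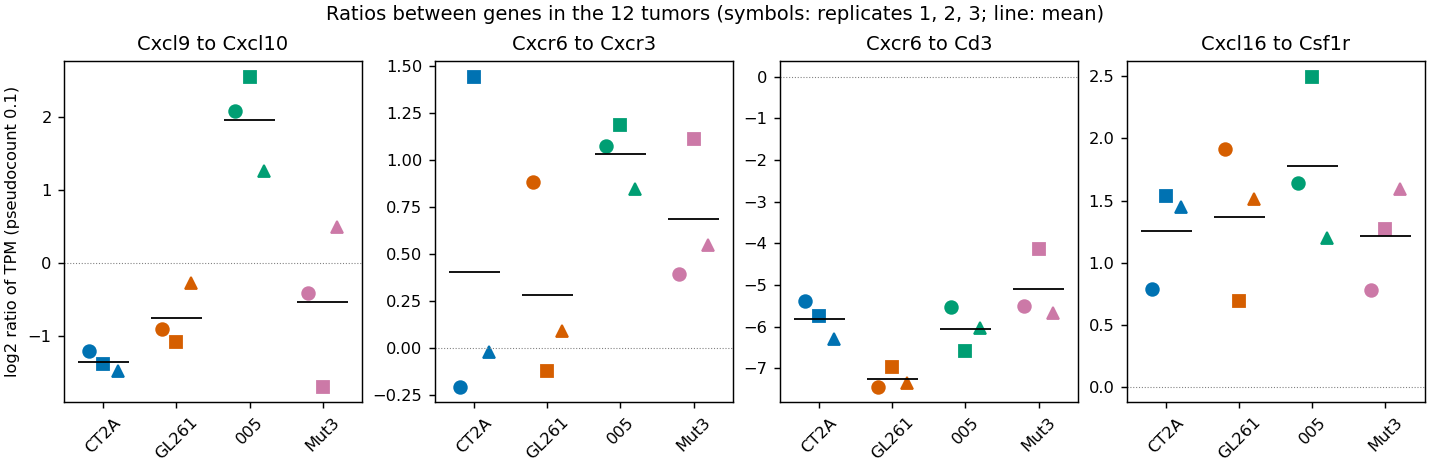
Log2 ratio of TPM values (0.1 TPM added) in the 12 tumors for Cxcl9 to Cxcl10, Cxcr6 to Cxcr3, Cxcr6 to the summed Cd3 genes and Cxcl16 to Csf1r; symbols are replicates 1 to 3 and lines are means. For Cxcl9 to Cxcl10 the 3 tumors of 005 lie above 0 and above all others.

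Other genes of the 2 axes were examined from a list of 11, of which all but Pdzk1 were tested. In CT2A 5 were higher than naïve brain and 1 was lower, against 19.0% and 20.2% of all genes. In GL261 2 were higher and none lower, against 14.6% and 7.77%, and in 005 4 were higher and none lower, against 11.6% and 1.05%. In Mut3 3 were higher and 2 lower, against 17.9% and 19.8%. The list's median log2 fold change was 1.25, 0.38, 0.98 and 0.58 in CT2A, GL261, 005 and Mut3, against −0.04, −0.08, 0.01 and 0.11 over all genes. Cxcl11, the remaining ligand of CXCR3, which the annotation calls a polymorphic pseudogene, lies beside Cxcl10. It was at 0.541 to 0.747 normalized CPM in naïve brain and rose by 2.95 (adjusted p = 0.0412) in CT2A, 3.87 (0.0220) in GL261 and 4.93 (0.00977) in 005 on the log2 scale. In Mut3 its change was 1.50 (adjusted p = 0.294). Replicates 1 to 3 of 005 had 2.88, 51.1 and 5.70 normalized CPM of Cxcl11. The CT2A tumors had 2.44 to 8.53 CPM and the GL261 tumors 6.95 to 11.2 CPM. Replicates 1 and 3 of 005 thus lay below every GL261 tumor, and replicate 2 lay far above all others.

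Adam17, a protease able to shed CXCL16, was higher in CT2A (1.17), 005 (1.08) and Mut3 (1.50). Adam10, the other ADAM protease of the list, was called in no line (−0.07, −0.05, 0.67 and 0.09 in CT2A, GL261, 005 and Mut3). Gnai3, a G protein subunit of the kind chemokine receptors signal through, was higher in all 4 lines (1.24 to 2.07), and Gnai2, another, in CT2A (1.74) and Mut3 (1.17). Pf4, a platelet chemokine, was higher in CT2A (1.33) and 005 (1.98). Ackr1, a decoy receptor that binds chemokines without signaling, was lower in CT2A (−1.17) and Mut3 (−3.60). Dpp4, whose product clips and inactivates CXCL9 and CXCL10, was called lower in Mut3, where it had 3 counts in all, against 0.498 to 19.0 normalized CPM in naïve brain.

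Genes that induce the ligands were examined from a list of 16, all but Ifnb1 tested. Compared with naïve brain, 8 of these were higher in 005 (11.6% of all genes), 6 in GL261 (14.6%) and 4 in CT2A (19.0%). In Mut3 2 were higher (17.9% of all genes) and 2 lower (19.8%), which is no more than the share of all genes in either direction. The median log2 fold change was 1.69, 1.23, 0.93 and 0.51 in that order. Irf1, an interferon-induced factor, was higher in CT2A (2.32), GL261 (4.25) and 005 (3.62), and in Mut3 its change was 1.49 (adjusted p = 0.0602). Irf8 was higher in GL261 (3.57) and 005 (3.07).

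Stat2, a factor of type I interferon signaling, was higher in GL261 (2.65) and 005 (1.69), and Irf9, which acts with it, in CT2A (1.71), GL261 (2.48) and 005 (1.76). Ifnar2, part of the type I interferon receptor, was higher in 005 (1.20). Tnfrsf1a, a receptor of TNF, and Nfkb1, a subunit of NF-kappaB, were higher in all 4 lines, with log2 fold changes of 1.77 to 2.97 and 1.04 to 2.66. In Mut3 Ifngr2, a chain of the interferon-gamma receptor, and Jak1, its kinase, were lower (−1.19 and −1.45). Ifng itself had 2 counts in all in naïve brain, 4 in Mut3, 15 in CT2A, 33 in GL261 and 115 in 005, and was called in 005 (adjusted p = 0.0382). These sums are not scaled to depth, which differed between groups. As normalized CPM Ifng was at 0 to 0.270 in naïve brain, 0 to 0.377 in Mut3 and 0.31 to 0.977 in CT2A. It was at 0.162 to 3.11 CPM in GL261 and 1.24 to 9.54 CPM in 005, ranges that overlapped. Between GL261 with 005 and CT2A with Mut3, 5 of the 15 inducers tested and 3 of the 10 other axis genes were higher and none lower, against 12.6% of all genes higher and 4.29% lower.

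**Figure D5:**
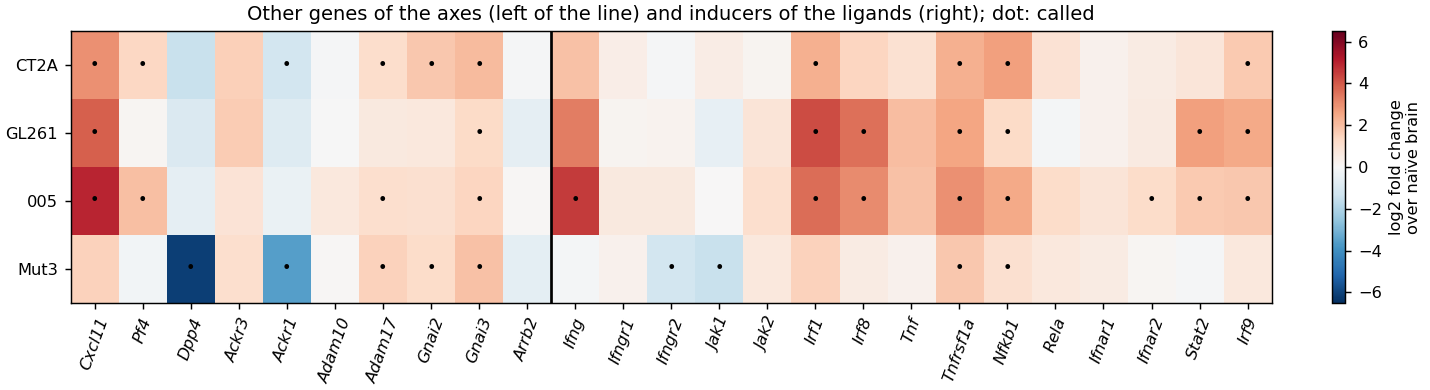
Log2 fold change over naïve brain of the other axis genes (left of the line) and the inducers of the ligands (right) in each tumor line, as color from blue (lower) to red (higher), with a dot where edgeR called the gene. Tnfrsf1a, Nfkb1 and Gnai3 have a dot in all 4 lines.

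The genes whose levels were most like each member were found by Pearson correlation of log2 CPM over the 15 samples, which share libraries and group differences and are given without a test. The 5 most like Cxcl9 were Lyz2 (r = 0.97), Gimap6, Mpeg1, Cd40 and Cd3d, and those most like Cxcl10 were Birc3 (r = 0.95), Iigp1, Cfb, Klra2 and Cd274. The 5 most like Cxcl16 were Cd40 (r = 0.98), Mpeg1, Slamf7, Ctsw and Cfb. Cxcr3 was most like Samsn1 (r = 0.94), Serpinb6b, Cd37, Nfam1 and Gpr171, and Cxcr6 most like Cd3d (r = 0.96), Cd8b1, Cd52, Rac2 and Pdcd1. Among the members, r over the same samples was 0.84 for Cxcl9 with Cxcl10, 0.97 for Cxcl9 with Cxcl16, 0.93 for Cxcl16 with Cxcr6, 0.82 for Cxcl9 with Cxcr3 and 0.72 for Cxcl10 with Cxcr3. The last was the lowest r of the 10 pairs.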

How the data were processed

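RNA of 3 mice per group was sequenced at one center from tumor tissue or naïve brain. The authors aligned reads with STAR 2.4.2a to the GENCODE mouse genome. The submitters' processing notes also name Salmon, DESeq2 1.18.1 and mm10. The authors deposited an estimated count per gene, not normalized between samples, and TPM values, which are scaled to gene length and to the same total per sample. The 2 units are not independent. Strandedness and batches are not given in the sources used here. Samples were grouped by the labels, and gene positions come from GENCODE M21 (46201 of 46679 identifiers matched).

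Counts were rounded and entered into edgeR 4.0.16 under R 4.3.3 (filterByExpr, TMM, quasi-likelihood test, all samples, no covariate, BH adjustment over all 17481 genes). Normalized CPM is the count scaled to the TMM-adjusted library size. The steps were tested on simulated data. Ratios were tested by exact permutation over samples. Alternatives were DESeq2 1.42.0, limma 3.58.1 on log2 TPM with a pseudocount of 1 or 0.1, other normalizations, filters and sample sets, a replicate block and each sample left out. P-values take mice, not lines, as the units.

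The members and lists were chosen with earlier results of these data known. All 5 members are named, as are the genes of the axis and inducer lists called in any tumor, and the 5 genes most like each member. An item of the inducer list is not reported here.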

Additional observations from a re-analysis of the deposited data

Results flagged for a closer look

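Tumor lines that share the naïve control differed in these genes by a direct edgeR test between lines (n = 3 mice each, BH adjustment over 17481 genes), and 10 such differences passed. Between 005 and Mut3 the log2 difference was 5.68 for Cxcl9, 2.99 for Cxcl10, 2.78 for Cxcl16, 4.33 for Cxcr3 and 3.98 for Cxcr6. Between GL261 and Mut3 it was 3.14 for Cxcl10, 3.09 for Cxcr3 and 1.98 for Cxcr6. Between CT2A and 005 it was −4.63 for Cxcl9 and −2.22 for Cxcr6. Of all genes, 14.0%, 11.1% and 1.99% were called in the same direction in these pairs, in that order. Of 15 fits with a sample left out, 2 lost the call of Cxcl10 between 005 and Mut3 and none lost the others there. Between GL261 and Mut3, 1 lost Cxcl10, 9 lost Cxcr3 and 4 lost Cxcr6. Between CT2A and 005, 6 lost Cxcl9 and 8 lost Cxcr6. No test of single outlying samples was made within the groups of 3.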

How the results depend on the processing

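Low counts limit Cxcr3 and Cxcr6 most, since naïve brain and Mut3 had few counts of either. Total counts were lowest in naïve brain but not in Mut3, which had 7525006 to 11308105 against 5380395 to 7244155 in GL261. DESeq2 called 3 members between CT2A and Mut3, 2 between GL261 and 005 and 5 between GL261 and Mut3, and without a filter on low counts these numbers were 1, 1 and 5. Of all genes, DESeq2 called 3205, 952 and 4014 of 17481, and the fit without a filter 2394, 601 and 3249 of 32244. With at least 10 counts in every sample Cxcl10 and Cxcl16 alone could be tested. Then 2 were called in CT2A, GL261 and 005 over naïve brain, 0 in Mut3, 0 between CT2A and 005, 1 between GL261 and Mut3, 2 between 005 and Mut3 and 2 between GL261 with 005 and CT2A with Mut3. Of the 9435 genes tested then, 3956, 2517 and 1206 were called in CT2A, GL261 and 005 over naïve brain and 3628 in Mut3. In the comparisons between lines 649, 1531, 1742 and 1233 were, in the same order. A fit of only the samples compared called 2 in 005 over naïve brain (222 of 14993 genes) and 1 between CT2A and GL261 (2353 of 14924). It called 0 between CT2A and 005 (108 of 15214), 1 between CT2A and Mut3 (3060 of 15202) and 2 between 005 and Mut3 (925 of 15736). limma on log2(TPM + 1), whose filter left out Cxcr3, called 1 in CT2A and 0 in Mut3 over naïve brain, 1 between CT2A and 005, 1 between GL261 and 005, 1 between GL261 and Mut3, 3 between 005 and Mut3 and 2 between GL261 with 005 and CT2A with Mut3. Of its 13471 genes it called 5556, 4796, 476, 364, 1189, 1061 and 764, in the same order. With 0.1 TPM the member counts were 2, 0, 1, 1, 3 (005 and Mut3) and 3, and the count for GL261 and Mut3 was within 1.5 times the main one. Of the 13471 genes, 6797, 5700, 448, 341, 1421 (005 and Mut3) and 1355 were called, and 1504 between GL261 and Mut3. The log2 fold change of Cxcl10 in Mut3 turned to −0.26 and −0.32 in these fits. Beyond the filters, the cause of these changes was not tested.

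The replicate numbers are shared by different mice. Of 30 pairs of samples with the same number, 1 had correlated deviations over 0.1 (range −0.33 to 0.26), and 2 of 15 samples correlated best with their own number. With the replicate block 1 member was called in Mut3 over naïve brain (6196 of 17481 genes) and 0 between CT2A and 005 (393 of 17481), and the other 9 counts stayed within 1.5 times.

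Leaving out each sample in turn gave 0 to 3 members called in Mut3 over naïve brain, 0 to 2 between CT2A and 005, 0 to 2 between CT2A and Mut3, 0 to 2 between GL261 and 005, 0 to 5 between GL261 and Mut3 and 3 to 5 between GL261 with 005 and CT2A with Mut3. The number of all genes called moved as well. In the same order it ran from 5489 of 18320 to 7221 of 18300, and from 183 of 18377 to 791 of 18385. It then ran from 1346 of 18313 to 3222 of 18300, and from 192 of 18524 to 1073 of 18300. The last ranges were 1433 of 18313 to 4125 of 18300 and 2012 of 18377 to 3314 of 18334. Uncalled differences that changed sign ranged from −1.26 to 1.34 (Cxcl10, CT2A and 005), −0.33 to 2.27 (Cxcl10, GL261 and 005), −1.44 to 0.31 (Cxcl16, GL261 and 005), −0.53 to 0.053 (Cxcr3, CT2A and GL261), −2.97 to 0.98 (Cxcr3, Mut3 and naïve brain) and −0.44 to 0.087 (Cxcr6, CT2A and GL261).

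For the ratios, a pseudocount of 1 TPM gave adjusted p of 0.0357 for Cxcr6 to Cxcr3 and 0.00584 for Cxcr3 to Cd3 among the lines by the exact permutation test. With 0.01 TPM Cxcr6 to Cd3 had 0.275 among the lines, and the differences between the line groups were −0.45 (Cxcr6 to Cxcr3, main value 0.11), −0.30 (Cxcr3 to Cd3) and −0.74 (Cxcr6 to Cd3). With CPM per kilobase these 4 values were 0.187, −0.052, −0.42 and −0.47. With Cd3d alone they were 0.163 for Cxcr6 among the lines, −0.64 for Cxcr3 and −0.53 for Cxcr6. Leaving out each tumor gave adjusted p of 0.00455 to 0.0638 for Cxcl9 to Cxcl10 and 0.0183 to 0.0593 for Cxcr6 to Cd3 among the lines, and differences of −0.036 to 0.29 for Cxcr6 to Cxcr3, −1.55 to −1.11 for Cxcr3 to Cd3 and −1.42 to −0.93 for Cxcr6 to Cd3.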
